A study of Mus musculus with 7 samples.

Results

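The genes described here are 47 members of the interferon response, taken from a fixed list of symbols and read as rows of the raw count table, which held 24552 gene symbols. All 47 had a row. Expression was measured in 7 libraries of EpCAM+ cholangiocytes, the epithelial cells that line bile ducts, taken from livers of Foxp3GFPDTR mice. In such mice cells that express Foxp3, the transcription factor of regulatory T cells, carry the receptor for diphtheria toxin and can be removed with the toxin. Every animal, in both groups, carried this transgene and ate the bile duct toxicant DDC for 10 days. The PBS group (n = 4 libraries) received saline and the DT group (n = 3 libraries) received 1 µg/kg diphtheria toxin, each into the peritoneum every 48 h. The labels give no sex or age, and do not say whether each library came from its own animal, so the p-values given here reflect library-to-library spread, which may be technical in part.

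Interferons are secreted proteins that warn cells of infection. Type I and type III interferons act through their receptors and a complex of STAT proteins with IRF9, which binds the interferon-stimulated response element (ISRE) of antiviral genes such as the Ifit, Oas and Mx families. Interferon gamma, made by T and NK cells, acts through a STAT dimer on the gamma-activated site (GAS) and induces IRF1, guanylate-binding proteins, immunity-related GTPases and the chemokines CXCL9 to CXCL11. In bile ducts, epithelial cells that respond to interferon gamma can attract T cells and present antigen to them.

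To show these elements, 4 promoter stretches are printed, of members that had a match and are described in detail later, taken from RefSeq (GRCm38.p6), another build than that of the counts. The ISRE was searched as GAAA, any 2 bases, GAAA, on both strands, and the GAS as TTC, any 3 bases, GAA, which reads the same on both strands. Capitals mark the matches, which may overlap each other. Each stretch is written 5′ to 3′ on the strand of its gene and ends before the annotated transcription start.

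Irf1, chr11:53769899-53769957, plus strand, 1 GAS: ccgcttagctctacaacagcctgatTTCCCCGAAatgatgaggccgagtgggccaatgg
Cxcl10, chr5:92349068-92349127, minus strand, 1 ISRE: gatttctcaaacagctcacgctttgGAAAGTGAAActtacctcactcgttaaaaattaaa
Gbp2, chr3:142620579-142620638, plus strand, 1 ISRE read on the opposite strand: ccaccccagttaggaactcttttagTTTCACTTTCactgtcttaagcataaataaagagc
Igtp, chr11:58199486-58199555, plus strand, 1 GAS followed by 1 ISRE: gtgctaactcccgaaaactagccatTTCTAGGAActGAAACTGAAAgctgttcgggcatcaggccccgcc

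The promoter table held 34 of the 47 members. Within 250 bases before to 50 bases after a start, an ISRE match was present in 20 of these 34 (58.8%), against 3.99% of 27025 genes in the table, and a GAS match in 10 (29.4%), against 9.55%. Both kinds of match were present in 6 members, which were Bst2, Gbp5, Gbp7, Igtp, Irgm2 and Oas1a. A match describes the letters of the window and does not show that a factor bound there. Lgals3bp, Dtx3l and Ifi47, which were among the more frequently read members, held neither match in this window.

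Interferon response genes were thinly read in these libraries. Their counts summed to 41215 over the 7 libraries, and their share of a library was 0.0796% to 0.127% in PBS and 0.109% to 0.130% in DT. Irf1 alone held 24.6% of the member counts, and Irf1, Lgals3bp and Cxcl10 together 49.0%. Only Irf1 and Cxcl10 had counts in all 7 libraries. At the other end, 9 members had 0 counts in every library, and 9 had counts in 1 library alone.

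Among all rows of the table a larger share, 53.2%, was at 0 throughout, against 19.1% of the members. The share of rows with counts in all 7 libraries was 11.3% among all genes and 4.26% among members. Members therefore tended to lie between those extremes, with reads in some libraries and none in others.

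**Figure D1:**
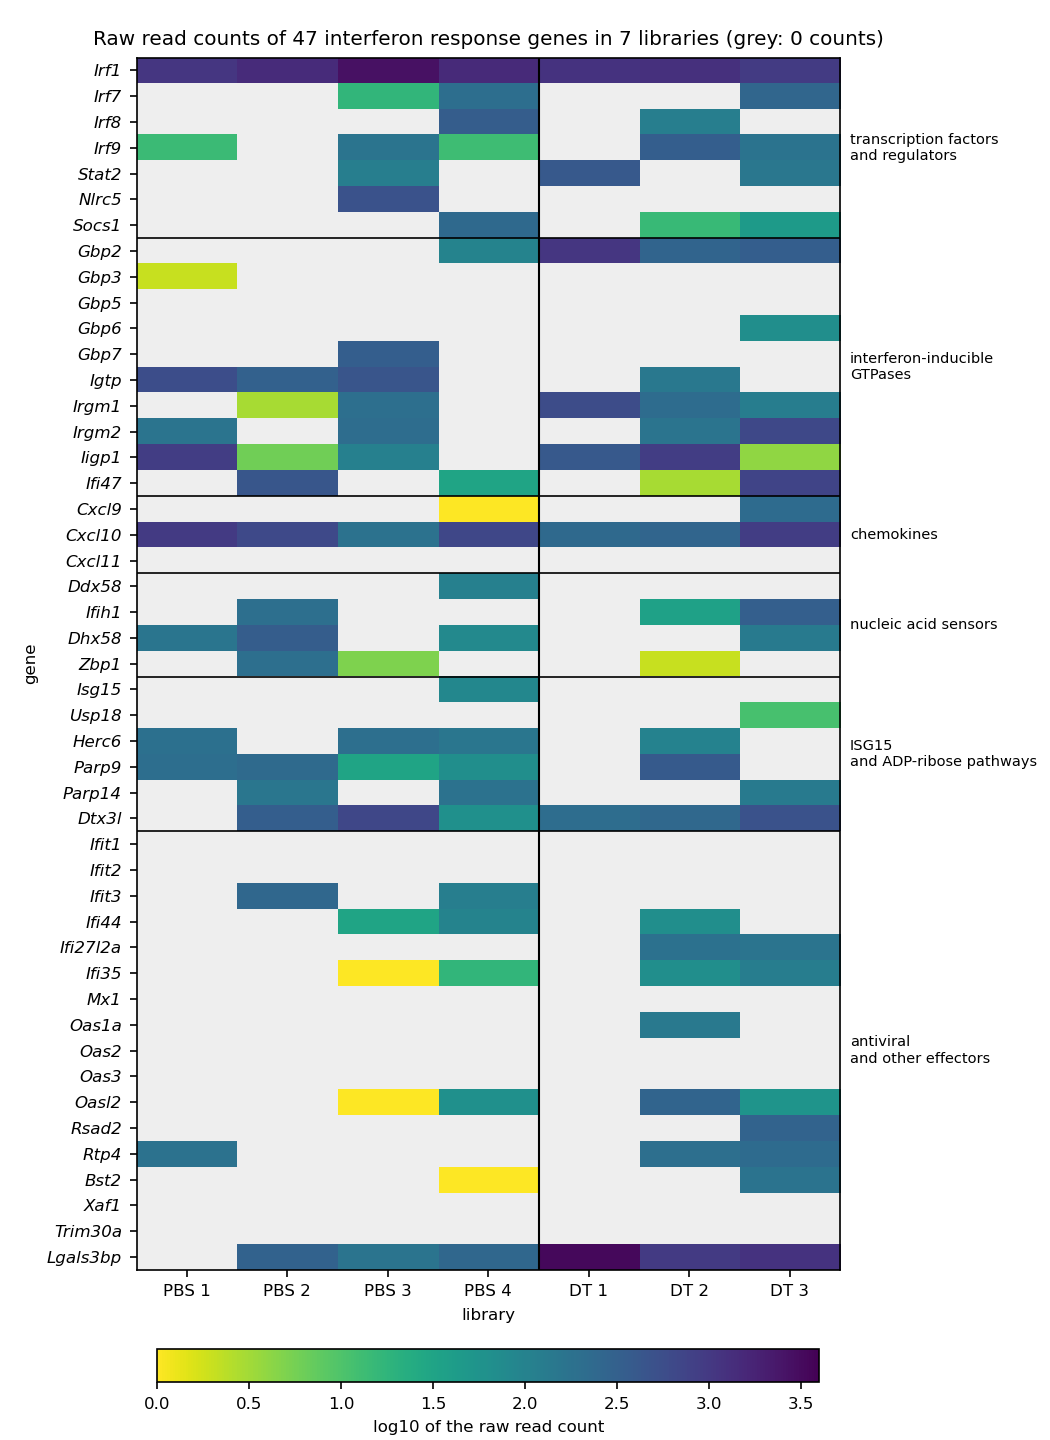
Raw read counts of the 47 interferon response genes (rows, grouped by role) in the 4 PBS and 3 DT libraries (columns), coloured by the log10 of the count, with grey for 0 counts. Irf1 and Cxcl10 have counts in every library, Lgals3bp and Gbp2 are darker in all 3 DT libraries than in any PBS library, and 9 genes are grey throughout.

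The number of members with at least 1 count was 11, 14, 19 and 22 from PBS 1 through PBS 4, against 8, 23 and 25 from DT 1 through DT 3. The groups overlapped, with means of 16.5 ± 4.93 (SD, n = 4) and 18.7 ± 9.29 (SD, n = 3). The table as a whole had counts for 5967, 6952, 6164 and 8361 genes from PBS 1 through PBS 4, against 5419, 7827 and 7920 genes from DT 1 through DT 3. DT 1 was the lowest library by both measures.

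A member value was usually either 0 or well above it. Of the 329 member values, 207 were 0, 11 lay between 1 and 9 counts, and 89 were 100 counts or more. The median of those above 0 was 188.5 counts. Missing values of this kind were also frequent in other genes at the same level: where the other 6 libraries averaged 100 to 200 counts, 22 of 43 member values were 0 (51.2%), against 43.6% of all such values in the table, and at 200 to 500 counts it was 8 of 27 (29.6%) against 21.6%. A single 0 beside values of 100 to 500 counts is thus common in these libraries and does not show that the gene was silent. Zeros were rare at higher levels. Where the other 6 libraries averaged 1000 to 2000 counts, 0.619% of all values were 0. Of the 9 member values there 1 was 0, that of Lgals3bp in PBS 1.

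**Figure D2:**
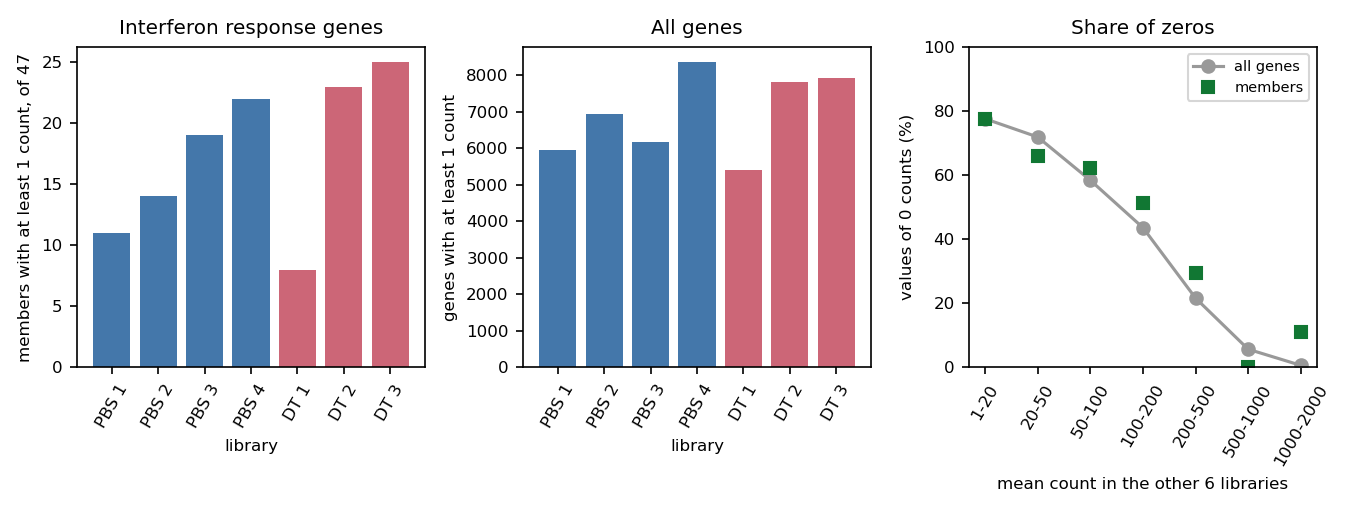
Left, members with at least 1 count in each library, and centre, the same for all genes (bars, blue for PBS and red for DT). Right, the percentage of values that are 0 (vertical axis) against the mean count in the other 6 libraries (bins on the horizontal axis), for all genes (grey line) and members (green squares). DT 1 is the lowest bar in both counts, at 8 members and 5419 genes, and the members' share of zeros lies near that of all genes up to 500 counts.

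Facts of the whole set of libraries that bear on these genes are few. Total counts ran from 4805018 to 6285624. All 17 cholangiocyte markers of a list, among them Epcam, Krt19 and Sox9, had counts, with summed levels of 23460 to 28550 CPM (read counts divided by the TMM-scaled library size, the usual CPM) in PBS and 24799 to 31036 CPM in DT. Pan-leukocyte markers had 0, 0, 203 and 1472 counts from PBS 1 through PBS 4, against 343, 1639 and 588 from DT 1 through DT 3, and each of the 7 genes had counts in at least 1 library. Of 21 macrophage and monocyte markers 3 were at 0 throughout (Adgre1, Ccr2 and Ms4a7), and the list summed to 954 to 2707 CPM in PBS and 1651 to 2284 CPM in DT. Most of these counts were Cd14. Without Cd14 the macrophage list had 748, 1097, 300 and 9290 counts in the PBS libraries and 2194, 3007 and 5764 in the DT libraries. In that sum PBS 4 was the highest and PBS 1 to 3 were each below every DT library. Single markers differed, and of the 12 tested genes of the whole list 7 had positive and 5 negative fold changes. Cybb, for example, had 423, 336, 26 and 357 counts in PBS and 0, 0 and 95 in DT. Y-linked genes had counts in PBS 1 (2048) and in DT 1 to 3 (1681, 1045 and 880) and none in PBS 2 to 4. Xist, expressed from the inactive X chromosome of females, had 12089, 17627 and 10420 counts in PBS 2 to 4, 0 in DT 2 and DT 3, and 630 and 453 in PBS 1 and DT 1, which held both kinds of transcript. The sex of the animals was thus nearly aligned with treatment, and the 2 can hardly be told apart in any DT against PBS difference given here, those of Lgals3bp and Gbp2 included. The comparison within libraries with Y-linked counts rests on PBS 1 alone in the PBS group.

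DT was compared with PBS to ask whether interferon response genes differ in bile duct epithelium when regulatory T cells are targeted. The low-count filter passed 23 members (48.9%, against 31.3% of all genes), and the 15 other members with counts are described by their counts alone. By the edgeR quasi-likelihood test with Benjamini-Hochberg adjustment over 7688 genes at a threshold of 0.05, 0 members passed as higher and 0 as lower in DT, where the background over all genes was 0% higher and 0.039% lower. Before adjustment, 1 member was higher and 0 lower at a p under 0.05, against 1.39% and 2.11% of all genes. DESeq2 called 0 of the 20 members to which it gave an adjusted p (background 0.61% higher and 1.77% lower). The weighted limma-voom fit called 0 of 23 (background 0.078% in each direction). Every tested member had an edgeR adjusted p of 1.00.

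Fitted fold changes were positive in 14 and negative in 9 of the 23 tested members. Their median log2 fold change was 0.66, beside -0.02 for all tested genes. Without DT 3 the filter, run again, passed 25 members, and their median was -0.47. The SE of a member's log2 fold change ran from 0.51 (Irf1) to 3.46 (Socs1 and Herc6) and was above 2 in 20 of the 23, so that most single members were not measured closely enough to exclude changes of several fold either way. In CPM, 2 tested members, Lgals3bp and Gbp2, had every DT library above every PBS library (8.70%, against 3.73% of all tested genes), and 0 had every DT library below (against 2.58%). Since these are bulk libraries, fewer cells of a type and less RNA per cell cannot be told apart.

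**Figure D3:**
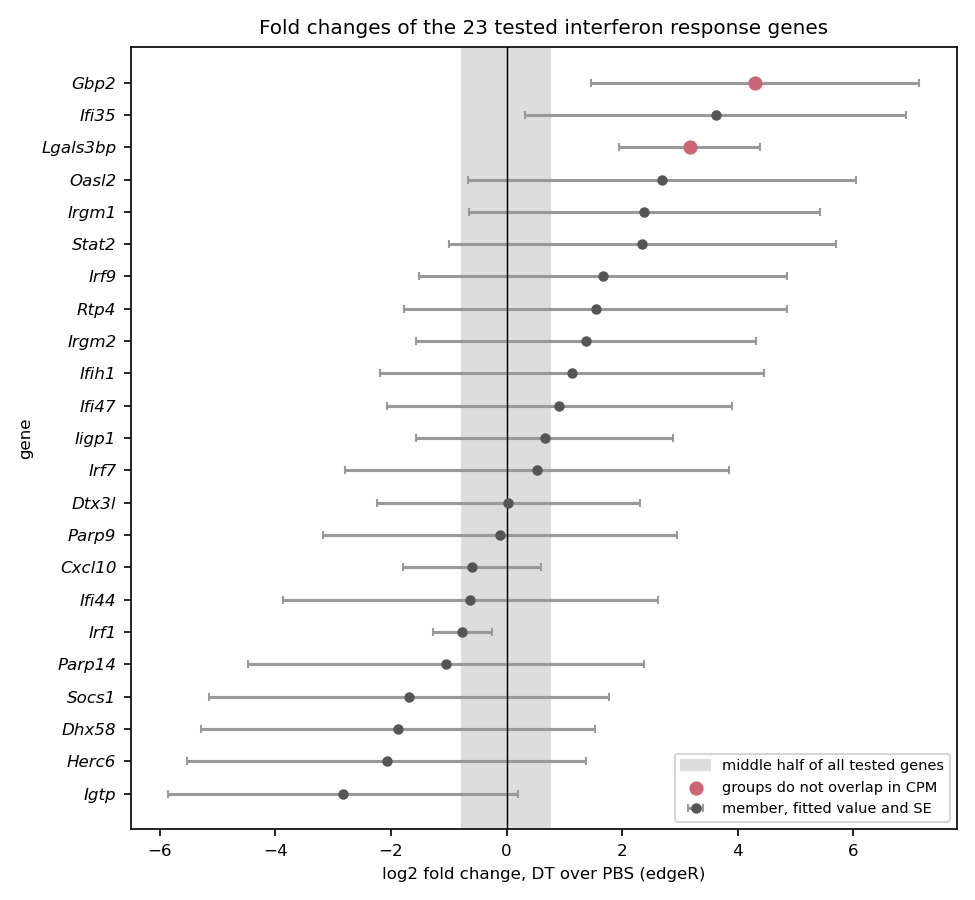
Fitted log2 fold change of DT over PBS (horizontal axis) with its SE for the 23 tested members, ordered by value. The grey band runs from the lower to the upper quartile of all tested genes, -0.78 to 0.75, and red points mark Gbp2 and Lgals3bp, whose groups do not overlap in CPM. Most error bars span 0, and none of the genes passed the edgeR test.

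Lgals3bp had the smallest unadjusted p of the tested members, though Gbp2 and Ifi35 had larger fold changes. It encodes a secreted glycoprotein that binds galectin-3 and is known as an interferon-induced gene. It had 0, 291, 165 and 249 counts from PBS 1 through PBS 4, against 3345, 963 and 1192 from DT 1 through DT 3. All 3 DT libraries were above all 4 PBS libraries, with DT 1 the highest and PBS 1 at 0. Mean levels were 35.1 ± 25.3 CPM in PBS (SD, n = 4) and 316 ± 208 CPM in DT (SD, n = 3), a ratio of the means of 8.98. The log2 fold change was 3.17 (SE 1.22), with an unadjusted edgeR p of 0.0211 and an edgeR adjusted p of 1.00.

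Left out 1 at a time, no library took the log2 fold change of Lgals3bp outside 2.46 (without DT 1) to 3.51 (without PBS 2). Without both PBS 1 and DT 1, which had the fewest detected genes, it was 2.06. With a covariate for whether a library had Y-linked counts, Lgals3bp passed the edgeR test (adjusted p = 0.00595). In that fit DT is set against PBS 1, the one PBS library with Y-linked reads, where Lgals3bp had 0 counts.

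Gbp2 encodes an interferon-inducible guanylate-binding protein, a large GTPase that acts on membranes of intracellular pathogens. It had 0, 0, 0 and 98 counts from PBS 1 through PBS 4, against 1065, 277 and 332 from DT 1 through DT 3. The groups did not overlap, and 3 of the 4 PBS libraries were at 0. The level was 4.84 ± 9.67 CPM in PBS and 95.8 ± 70.3 CPM in DT (SD, n = 4 and n = 3). Its log2 fold change was 4.30 with an SE of 2.84 (edgeR adjusted p = 1.00). Without PBS 4, where the whole PBS group is at 0, the fitted value was 12.00, which depends on the prior count and is no bound.

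Lgals3bp and Gbp2 shared their highest library, DT 1. That library also held the most counts of the endothelial markers, 1026 against 0 to 213 in PBS and 8 and 104 in DT 2 and DT 3. All of those in DT 1 were of Egfl7 (678) and Pecam1 (348, with 0 elsewhere). Other endothelial markers were read only in other libraries: Cdh5 in PBS 3, Stab2 in PBS 4 and Kdr in DT 3. Of the 12 markers, 5 (Tek, Stab1, Clec4g, Lyve1 and Oit3) were at 0 throughout. T and NK cell markers were also highest there, at 822 counts against 0 to 425 in the other libraries. Of those, 821 were Gzma, a granzyme, and 16 of the 21 markers, among them Cd3d, Cd3e and Cd3g, were at 0 in all 7. Hepatocyte markers summed to 2241 to 3835 CPM in PBS and 3624 to 5566 CPM in DT, with 6 of 20 at 0 throughout. Dendritic cell markers, a list that includes MHC class II genes, stood at 105, 185, 257 and 1204 CPM in the PBS libraries and 558, 880 and 745 CPM in the DT libraries. By mean CPM over all libraries that list was led by H2-Aa (0, 46, 0 and 2208 counts with PBS, 1096, 1268 and 1278 with DT). Cd74, of the same list, did not share that order, with 527, 778, 1021 and 764 counts in PBS and 194, 768 and 1194 in DT. Of the 5 tested genes of the list, 4 had positive fold changes and 1, Cd74, a negative one (-0.26). Of its 12 genes 6, among them Itgax and Zbtb46, were at 0 throughout. In the sum of the list, as in that of the macrophage markers without Cd14, PBS 1 to 3 were below every DT library and PBS 4 was the highest. The part of these cell types in the levels of Lgals3bp and Gbp2 was not tested. Without DT 1 the log2 fold changes were 2.46 for Lgals3bp and 3.49 for Gbp2.

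**Figure D4:**
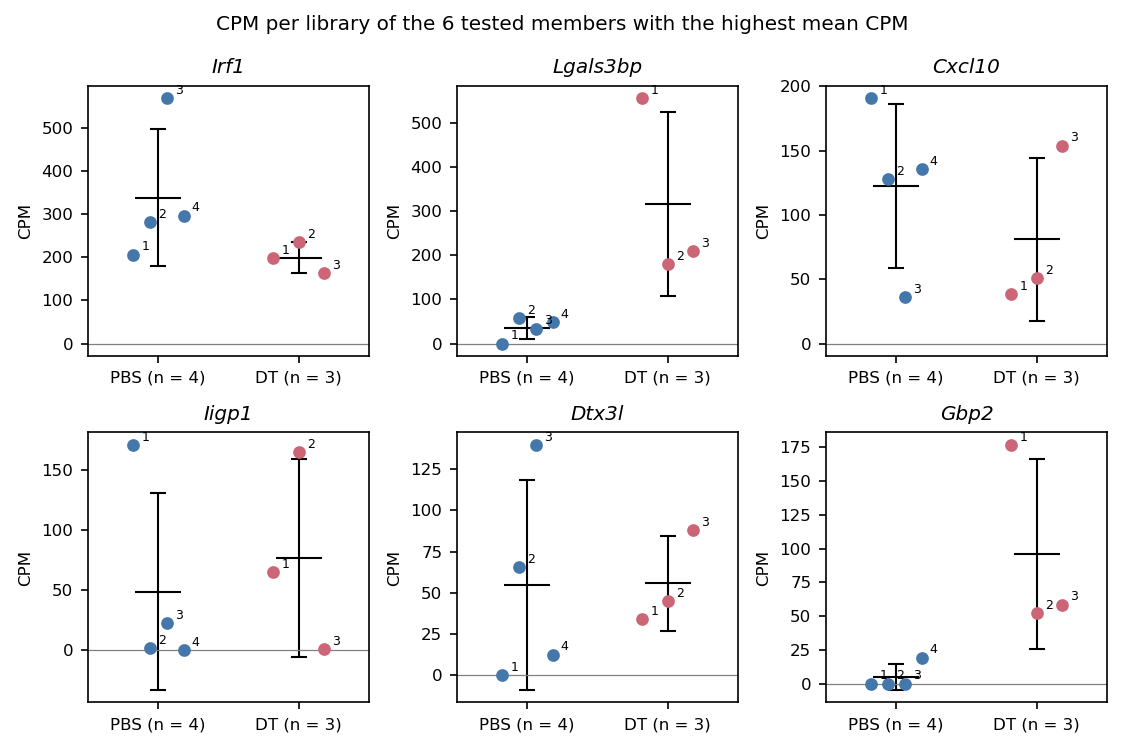
CPM in each library (points, numbered by replicate) of the 6 tested members with the highest mean CPM, for PBS (blue, n = 4) and DT (red, n = 3), with the mean (bar) and SD (whiskers). Vertical scales differ between panels. Lgals3bp and Gbp2 have all DT points above all PBS points, and the groups overlap for Irf1, Cxcl10, Iigp1 and Dtx3l.

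Irf1, the transcription factor induced early by interferon gamma and shown above with its GAS, was the most read member. It had 1063, 1432, 2760 and 1503 counts from PBS 1 through PBS 4, against 1199, 1249 and 932 from DT 1 through DT 3. PBS 3 was the highest library, and the groups overlapped. The level was 338 ± 158 CPM in PBS (SD, n = 4) and 199 ± 35.1 CPM in DT (SD, n = 3), which gave a log2 fold change of -0.76 with an SE of 0.51 (edgeR adjusted p = 1.00) that was -0.40 without PBS 3. The coefficient of variation was 46.8% in PBS and 17.6% in DT. Over genes at 200 to 500 CPM its median was 39.0% in PBS and 37.7% in DT. Over genes at 100 to 200 CPM, where the DT mean falls just under the upper edge, the median was 54.5% in DT. By mean CPM, Irf1 ranked 650 among all genes.

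The other transcription factors and regulators had reads in some libraries only. Irf9, the DNA-binding subunit of the type I interferon complex, had 14, 0, 164 and 13 counts in PBS and 0, 335 and 171 in DT (log2 fold change 1.67, SE 3.18). Stat2, its partner, had counts in PBS 3 (116), DT 1 (394) and DT 3 (148), with a log2 fold change of 2.35 (SE 3.35). These 2 genes of 1 complex were both read in PBS 3 and DT 3 and both missing in PBS 2. In the remaining libraries they differed, with Irf9 alone read in PBS 1, PBS 4 and DT 2 and Stat2 alone in DT 1. Irf7, which amplifies type I interferon production, had 17 counts in PBS 3, 197 in PBS 4 and 260 in DT 3 (0.53, SE 3.33). Socs1, the feedback inhibitor of JAK kinases, had 232 counts in PBS 4, 15 in DT 2 and 44 in DT 3 (-1.69, SE 3.46). Nlrc5, the activator of MHC class I genes, had 492 counts in PBS 3 and 0 in the other 6 libraries, and was not tested.

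Irf8 is a factor of macrophages and dendritic cells as well as an interferon gamma target. It had 342 counts in PBS 4, 116 in DT 2 and 0 in the other 5 libraries. PBS 4 and DT 2 were also the libraries with the most pan-leukocyte counts. The macrophage gene Cd68 had 592 counts in PBS 4, 216 in DT 2, 153 in DT 3 and 0 elsewhere. The whole macrophage list without Cd14 had 9290 counts in PBS 4, but more in DT 3 (5764) than in DT 2 (3007). Irf8 had 0 counts in DT 3. PBS 4 was, in addition, the library with the most Socs1 counts and the only one with counts of Isg15 (85) and Ddx58 (109). The part of leukocytes in these values was not tested.

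Interferon-inducible GTPases restrict intracellular microbes and are strongly induced by interferon gamma in many mouse cells. Their 10 genes together stood at 311, 145, 266 and 25.5 CPM from PBS 1 through PBS 4, against 337, 315 and 334 CPM from DT 1 through DT 3. The DT libraries lay within a narrow band, and the lowest of them, DT 2 (314.56 CPM), was only just above PBS 1 (310.76 CPM). That order depends on the scaling: by plain library totals PBS 1 stood above DT 2 and DT 3. Without Gbp2 the sums were 311, 145, 266 and 6.12 CPM in PBS and 160, 263 and 275 CPM in DT, and the groups overlapped. This grouping by role was made with the values known, and no test was run on the sums.

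Counts of the immunity-related GTPases varied widely between libraries of the same group. Iigp1 (IRGA6), which loads onto pathogen vacuoles, had 879, 6, 107 and 0 counts in PBS and 389, 875 and 4 in DT (log2 fold change 0.66, SE 2.22). Its 2 highest libraries, PBS 1 and DT 2, belonged to different groups and were almost equal in counts. Igtp (IRGM3), a regulator of such GTPases, had 556, 300, 448 and 0 counts in PBS and 0, 146 and 0 in DT, and the log2 fold change was -2.82 with an SE of 3.03 (edgeR adjusted p = 1.00). Igtp was thus read in 3 of 4 PBS and 1 of 3 DT libraries.

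Irgm1, another regulatory member, had 0, 3, 191 and 0 counts in PBS and 576, 212 and 119 in DT (log2 fold change 2.38, SE 3.04). Irgm2 had 164, 0, 207 and 0 counts in PBS and 0, 162 and 651 in DT (1.38, SE 2.95). Ifi47 (IRG-47) had 427 counts in PBS 2, 31 in PBS 4, 3 in DT 2 and 722 in DT 3 (0.92, SE 2.99). PBS 4 had no counts of Igtp, Irgm1, Irgm2 or Iigp1, although it had the most detected genes of all libraries. Of the untested GTPases, Gbp7 had 337 counts in PBS 3 alone, Gbp6 66 in DT 3 alone and Gbp3 2 in PBS 1 alone, and Gbp5 was at 0 throughout. Gbp genes resemble each other in sequence, as do the Irg, Oas and Ifit families, and how reads shared between copies were counted is not given in the sources used here, so the split within a family is uncertain.

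The chemokines CXCL9, CXCL10 and CXCL11 bind CXCR3 and attract activated T cells and NK cells. Cxcl10 had 982, 647, 175 and 687 counts from PBS 1 through PBS 4, against 231, 270 and 872 from DT 1 through DT 3. Both groups held high and low libraries, with PBS 1 the highest and PBS 3 the lowest. The level was 122 ± 64.1 CPM in PBS (SD, n = 4) and 81.0 ± 63.4 CPM in DT (SD, n = 3), which gave a log2 fold change of -0.60 with an SE of 1.20 (edgeR adjusted p = 1.00), and 0.04 without both PBS 1 and DT 1. Cxcl9, the most specific of the 3 to interferon gamma, had 216 counts in DT 3, 1 in PBS 4 and 0 elsewhere. Cxcl11 was at 0 in all 7 libraries.

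The nucleic acid sensors recognise viral RNA or DNA and are themselves induced by interferon. Dhx58 (LGP2), a regulator of the RNA helicase sensors, had 158, 351, 0 and 80 counts in PBS and 0, 0 and 133 in DT (log2 fold change -1.88, SE 3.41). Ifih1 (MDA5), a sensor of long double-stranded RNA, had 194 counts in PBS 2, 35 in DT 2 and 319 in DT 3 (1.13, SE 3.32). Both were read in 4 or fewer libraries, and their groups overlapped. Zbp1, a sensor of Z-form nucleic acids, had 194 counts in PBS 2, 5 in PBS 3 and 2 in DT 2. DT 1 had no counts of any of the 4 sensors.

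Genes of the ISG15 and ADP-ribosylation pathways modify proteins and were read in part of the libraries. Dtx3l, a ubiquitin ligase that pairs with PARP9, had 0, 334, 679 and 63 counts in PBS and 204, 240 and 500 in DT. It was read in 6 of 7 libraries, with a coefficient of variation of 117% in PBS and 51.5% in DT, at 54.5 ± 63.7 CPM in PBS and 55.7 ± 28.7 CPM with DT (log2 fold change 0.03, SE 2.28). Its partner Parp9 had 196, 225, 31 and 67 counts in PBS and 376 counts in DT 2 alone among the DT libraries (-0.12, SE 3.07). Although the 2 proteins act as a pair, DT 1 and DT 3 held Dtx3l counts with no Parp9 counts, and PBS 1 the reverse. Herc6, the mouse ligase for ISG15, had counts in PBS 1 (187), PBS 3 (190), PBS 4 (154) and DT 2 (100), with a log2 fold change of -2.08 (SE 3.46). Parp14, a mono-ADP-ribosyltransferase, had counts in PBS 2 (153), PBS 4 (174) and DT 3 (132) (-1.05, SE 3.42). Usp18, the protease that removes ISG15, had 11 counts in DT 3 and 0 elsewhere.

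The antiviral and other effectors held 7 of the 9 members without any count. Of these 17 genes the following were at 0 in every library: Ifit1, Ifit2, Mx1, Oas2, Oas3, Xaf1 and Trim30a. A count of 0 allows up to 3 counts per library by counting error alone. On plain library totals, not TMM-scaled, this is 0.477 to 0.624 CPM. The true limit is higher because zeros were frequent at far larger means. Ifit3, a partner of Ifit1 in binding viral RNA, had 251 counts in PBS 2, 114 in PBS 4 and 0 elsewhere (DESeq2 adjusted p = 0.191). The IFIT proteins, MX1 and the OAS enzymes are the genes most often used as a readout of type I and type III interferon.

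Several effectors had counts in DT 2 and DT 3 without counts in PBS 1 or PBS 2. Oasl2 had 1 count in PBS 3, 63 in PBS 4, 277 in DT 2 and 54 in DT 3 (log2 fold change 2.69, SE 3.36). Ifi35 had 1 and 17 counts in PBS 3 and PBS 4 and 67 and 119 in DT 2 and DT 3 (3.62, SE 3.30). Ifi27l2a, whose product lies in mitochondria or at the nuclear envelope, had 181 and 164 counts in DT 2 and DT 3 and 0 in the other 5 libraries. It did not pass the filter for edgeR, and DESeq2 gave it an adjusted p of 0.186. DT 1 had no counts of any of these 3 genes, so the DT libraries were not alike in them.

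Rsad2 (viperin), an antiviral radical enzyme, had 283 counts in DT 3 alone. Bst2 (tetherin), which holds budding virus at the membrane, had 169 counts in DT 3 and 1 in PBS 4. Oas1a had 141 counts in DT 2 alone. Rtp4 had 176 counts in PBS 1, 190 in DT 2 and 222 in DT 3 (log2 fold change 1.54, SE 3.32), and Ifi44 had 31, 97 and 66 counts in PBS 3, PBS 4 and DT 2 (-0.63, SE 3.24). Of the 38 members with counts, 11 had their highest count in DT 3, the library with the largest total, and 3 to 6 in each of the others.

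Summed over all 47 members, the level was 850, 948, 1260 and 864 CPM from PBS 1 through PBS 4, against 1230, 1183 and 1382 CPM from DT 1 through DT 3. The groups overlapped through PBS 3, which held the most Irf1. Without Irf1 the sums were 643, 666, 691 and 567 CPM in PBS and 1031, 948 and 1218 CPM in DT, and every DT library was above every PBS library. Without Irf1 and Lgals3bp they were 643, 608, 658 and 518 CPM in PBS and 475, 767 and 1007 CPM in DT, and the groups overlapped again. DT 1 then lay below every PBS library, while DT 2 and DT 3 stayed above all of them. The full separation, seen only without Irf1, thus rested on Lgals3bp in DT 1. These exclusions were chosen with the values known, and no test was run on a sum.

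Upstream of these genes, the interferons themselves were not read. All 13 ligand genes of a list, covering interferon alpha, beta, epsilon, kappa, zeta, lambda and gamma, had 0 counts in every library. Interferon gamma is made by lymphocytes, which EpCAM does not mark.

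Receptor and signalling genes were read unevenly. All 20 genes of that list had counts, 7 of them in all 7 libraries and 5 in 2 libraries alone (Ifngr2, Ifnlr1, Tyk2, Irf5 and Ptpn6). Of the 20, 15 were tested, and 0 were called in either direction by edgeR, with 9 positive and 6 negative fold changes and a median of 0.09. Jak1, the kinase shared by all interferon receptors, was at 469 ± 104 CPM in PBS and 499 ± 91.7 CPM with DT (log2 fold change 0.09, SE 0.37). Ifngr1, the ligand-binding chain of the interferon gamma receptor, had 2392, 1851, 2038 and 1064 counts in PBS and 124, 1744 and 1791 in DT. It was low in DT 1 alone, with a log2 fold change of -0.72 (SE 0.64). Socs3, an inhibitor of STAT3 signalling, Irf2bp2, a partner of IRF2, and Ptpn11, a phosphatase, had log2 fold changes of -0.43, 0.37 and 0.37.

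The number of tested receptor and signalling genes with every DT library above every PBS library was 3 of 15 (20%, against 3.73% of all tested genes), and 0 lay below. These were Ifnar2, Il10rb and Jak2, named after their values were seen. Ifnar2, a chain of the type I receptor, had 0, 1, 198 and 66 counts in PBS and 346, 236 and 681 in DT (log2 fold change 2.45, SE 2.71). Il10rb, the chain shared by the interferon lambda and interleukin 10 receptors, had 102, 0, 0 and 0 counts in PBS and 191, 406 and 1192 in DT (4.41, SE 2.75). Jak2, the kinase of the interferon gamma receptor, had 0, 190, 9 and 184 counts in PBS and 1126, 845 and 391 in DT (2.87, SE 1.99). The edgeR adjusted p was 1.00 for each, so none passed the test.

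Of 17 genes for nucleic acid sensing outside the members, 4 were at 0 throughout (Mb21d1, Tlr7, Tlr9 and Aim2), 11 were tested and 0 were called, with 4 positive and 7 negative fold changes and a median of -0.63. Traf3, an adaptor for interferon induction, had 921, 564, 469 and 597 counts in PBS and 344, 231 and 183 in DT. Each DT library was below each PBS library, as in 2.58% of all tested genes (log2 fold change -1.51, SE 1.44, edgeR adjusted p = 1.00). Rnf135, a ubiquitin ligase for RIG-I, was the one gene of the 11 with every DT library above, at 0, 0, 0 and 33 counts with PBS and 340, 257 and 104 with DT (4.64, SE 3.49). Tmem173 (STING), Ikbke, Adar and Trim25 had log2 fold changes of 0.97, 1.63, 1.09 and -0.63, each with an SE above 2.

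Further interferon-induced genes formed a list of 95, of which 93 were in the table, 20 at 0 throughout and 50 tested. By edgeR 0 of the 50 were called, with 30 positive and 20 negative fold changes and a median of 0.20. The most read were H2-K1, B2m and H2-D1, the heavy and light chains of MHC class I, at 3531 ± 671, 1610 ± 729 and 1306 ± 191 CPM in PBS and 3128 ± 386, 2300.5 ± 358 and 1391 ± 297 CPM in DT. Ly6e, which restricts virus entry, was at 487 ± 159 and 714 ± 135 CPM, and Cd47, the ligand that inhibits phagocytosis, at 526 ± 187 and 595 ± 265 CPM. These genes are expressed without interferon in many cells and had counts in every library, unlike nearly all of the 47 members.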

How the data were processed

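The authors deposited 1 table of raw read counts per gene symbol for 7 libraries, not normalized. Per the labels' protocols, libraries were made from 100 ng of total RNA with the QuantSeq FWD kit, which reads transcript 3′ ends, so a count does not scale with transcript length. Per the submitters' processing notes, reads were placed on mm9. For the aligner, the counter, the annotation and molecular identifiers, the method is not given in the sources used here. Sample titles gave each library its group and number.

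Total counts per library ran from 4805018 to 6285624. Genes were kept by filterByExpr (minimum count 10, minimum total 15), which left 7688 genes with 97.5% of counts, scaled by TMM and tested two-sided in edgeR 4.0.16 (R 4.3.3) with robust quasi-likelihood. CPM used TMM-scaled sizes of the kept genes, and the SE came from the fold change and F. Intervals and floors cover counting error only. The script was tested on simulated counts. Alternatives were RLE and upper quartile factors, 2 other filters, a replicate block, DESeq2 1.42.0, limma-voom (limma 3.58.1) and leaving out each library. Leaving out PBS 1 and DT 1 together and a Y-linked covariate were added after the data were seen. Detection was also counted at 10 counts, and summed CPM on plain totals and without the largest member.

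Members and lists were chosen with earlier results of these data known. Tested members are named with values, untested members with counts alone, and each further list with its 5 most read tested genes and any called gene. Other genes outside this rule (Ifnar2, Il10rb, Jak2, Rnf135, Mavs, Isg20, Psmb10, Mlkl, Zc3hav1, the 5 receptor and signalling genes read in 2 libraries and the markers named singly) were picked after their values were seen. Same-numbered libraries showed no pairing: deviations of 733 highly expressed genes from their group means correlated at -0.049, -0.0122 and 0.0259, none over 0.1. Figures were drawn with matplotlib 3.10.9.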

Additional observations from a re-analysis of the deposited data

Results flagged for a closer look

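In each of 12 of 25 values tested, 1 PBS library lay far from the other 3. Chance alone gives about 1 in 20 for normally spread values, which these counts with many zeros are not. Among all tested genes with any range in PBS, 1321 of 7662 (17.2%) were past the same limit, against 12 of 23 tested members. These shares were not matched for level, and zeros were frequent at the level of most members, so they are not directly comparable. The measure is the gap between that library and its nearest neighbour as a share of the range of the group. It was 1 for Stat2 (PBS 3), Gbp2 and Socs1 (PBS 4), Rtp4 (PBS 1) and Ifih1 (PBS 2), which had counts in that library and 0 in the other 3, so that the share is 1 by construction. It was 0.91 for Irf7, 0.939 for Ifi35 and 0.983 for Oasl2, each highest in PBS 4. It was 0.92 for Irf9 and 0.985 for Irgm1, both highest in PBS 3, 0.871 for Iigp1 (PBS 1) and 0.927 for Ifi47 (PBS 2). PBS 4 was thus the library apart for 5 of these 12 genes. It also had the most detected genes (8361), and how often it stood apart among all genes was not counted. It held 1472 counts of pan-leukocyte markers, against 0, 0 and 203 in PBS 1 to 3, and the part of leukocytes in these values was not tested.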

How the results depend on the processing

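No member was called by any alternative, except Lgals3bp with the Y-linked covariate (1 higher, log2 fold change 13.71). Over all genes, 1, 1, 6, 47, 6 and 23 were higher with no filter, with a minimum average log2 CPM of 3, with the replicate block, by DESeq2, by limma-voom and with the Y-linked covariate, and 7, 6, 136 and 6 were lower with no filter, with the replicate block, by DESeq2 and by limma-voom. With 1 library left out, the count was 0 to 1 for higher and 1 to 4 for lower. The filter, run again each time, then passed 16 to 26 members. The members' median ran from -0.47 (without DT 3) to 0.92. It was 0.96 with the replicate block, 2.06 by limma-voom and 7.46 with the Y-linked covariate, which moved the median of all genes to 0.67 (0.21 by limma-voom and 0.16 with the block).

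Signs held in 13 of 23 members in every alternative, other than the 2 added ones, that included the gene (7 positive, 6 negative). Not every member passed the filter each time, and without PBS 4 only 16 did. Stat2 was not fitted without PBS 3, nor Rtp4 without PBS 1, the only PBS library with counts in each case. A sign that was not fitted could not turn. With the block they turned for Irf9 (-0.049), Iigp1 (-1.03), Socs1 (6.08) and Ifi44 (0.051), and by limma-voom for Irf7 (-0.17) and Socs1 (2.02). Dtx3l, near 0, was at -0.039, -0.023 and -0.039 with RLE, upper quartile and DESeq2. With the Y-linked covariate they turned for Iigp1 (-1.16), Socs1 (7.24), Parp14 (8.37), Ifi44 (7.46) and Rtp4 (-0.45), and without PBS 1 and DT 1 for Cxcl10 (0.038), Parp9 (0.72) and Dtx3l (-0.12). When 1 library was left out they turned for Irf7 (-8.81 to 1.11), Irgm2 (-0.29 to 2.16), Iigp1 (-0.58 to 3.29), Ifi47 (-6.22 to 1.5), Parp9 (-10.08 to 0.47), Dtx3l (-0.47 to 1.08) and Ifih1 (-1.54 to 1.69). Most extreme values arise where a group is left at 0. Otherwise the cause was not tested. Without Irf1, summed CPM averaged 642 in PBS and 1065 in DT, against 980 and 1265. The replicate block changed no call of a member. Frequent zeros limit what can be seen in members below about 500 counts.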

Other observations

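Interferon pathway genes outside the 47 members are named here after their values were seen. Mavs, the mitochondrial adaptor of the RNA helicase sensors, had 347, 380, 153 and 0 counts from PBS 1 through PBS 4 and was at 0 in DT 1, DT 2 and DT 3, so the groups overlapped at 0. Psmb10, a subunit of the immunoproteasome, had 133, 0, 37 and 0 counts in PBS and 597, 380 and 552 in DT (log2 fold change 3.41, SE 2.71). Isg20, an antiviral exonuclease, had 91, 0, 207 and 130 counts in PBS and 818, 351 and 418 in DT (2.09, SE 2.35). Mlkl, which carries out necroptosis, had 18, 0, 10 and 0 counts in PBS and 135, 471 and 31 in DT (4.78, SE 3.49). Zc3hav1 (ZAP), which binds viral RNA, lay the other way, at 859, 1191, 488 and 905 counts in PBS and 222, 53 and 534 in DT (-1.86, SE 1.11). Of the 50 tested genes of the further interferon-induced list, these last 4 were the ones without overlap in CPM. Of them 3 had DT above (6%, against 3.73% of all tested genes) and 1, Zc3hav1, had DT below (against 2.58%). In raw counts Zc3hav1 did overlap, with DT 3 (534) above PBS 3 (488). The edgeR adjusted p was 1.00 for all 5 genes.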
